A study of Mus musculus with 8 samples.

Results

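The 10 genes described here encode parts of the photoreceptor outer segment and of the matrix around it: Prph2, Rom1 and Abca4 of the disc rim, Prcd of the disc, Prom1 and Cdhr1 of the disc base, Rp1 and Rp1l1 of the axoneme, and Impg1 and Impg2 of the interphotoreceptor matrix. They were chosen by symbol for these roles, among 43472 symbols in the count tables, and all 10 were found. Prcd stands in the tables under its older symbol Gm11744. RNA was sequenced from neural retinas of 4 Mfp2-/- mice and 4 control mice, all of strain C57BL/6J and 3 weeks old (postnatal day 21). The controls were 3 Mfp2+/+ mice and 1 Mfp2+/- mouse, which is control replicate 2. Mfp2, whose symbol in the tables is Hsd17b4, encodes multifunctional protein 2 of peroxisomal β-oxidation. It was inactivated in the whole animal, so that the retinas were also exposed to the loss elsewhere in the body. Each library held both retinas of 1 mouse, without the retinal pigment epithelium, and was prepared by QuantSeq, a method that sequences polyadenylated transcripts from their 3′ ends. Counts in genes came to 1895485 to 2826553 per Mfp2-/- library and to 2340974 to 3226187 per control library. Hsd17b4 had 0 to 1 counts per Mfp2-/- library and 20 to 78 per control library.

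The outer segment is a modified cilium filled with a stack of membrane discs, which are built at its base from evaginations of the plasma membrane and shed at its tip. The tetraspanins peripherin-2 (Prph2) and ROM1 form oligomers that hold the sharply curved rims of the discs. Prominin-1 (Prom1) and the protocadherin CDHR1 sit at the base where new discs form, RP1 and its relative RP1L1 bind the microtubules of the axoneme along which the discs are stacked, and the proteoglycans IMPG1 and IMPG2 belong to the matrix between the photoreceptors and the pigment epithelium. Mutations in all these genes are known from human retinal dystrophies.

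All 10 genes were lower in Mfp2-/- than in control retinas. Their log2 fold changes ran from -4.39 for Rp1 to -2.52 for Impg2, with a median of -3.34, where the median over all 12516 genes tested was -0.0039. Each passed the quasi-likelihood test of edgeR, at p-values of 1.2e-07 to 0.00159 after Benjamini-Hochberg adjustment over all of these genes and with 0.05 as the threshold. Of all genes tested, 13.2% were called lower. Decreases of 8-fold or more were found for 8 of the 10 genes, the exceptions being Impg1 and Impg2, and for 1.01% of all genes tested. This count depends on the scaling and the libraries. Cdhr1 lay close to the cut (log2 fold change -3.04) and missed it with total counts alone (-2.92). Impg1 passed it without Mfp2-/- replicate 2 (-3.02). For each of the 10, all Mfp2-/- values were below all control values. In 15.8% of all genes tested the groups were separated in this direction. Together the 10 genes took 0.0631% to 0.0877% of the counts in genes in Mfp2-/- libraries and 0.798% to 1.03% in control libraries. From counts of whole retinas alone, fewer photoreceptors and less RNA per photoreceptor cannot be told apart. For mutant mice of the same age, the paper reports photoreceptor nuclei in normal number and distribution. It also reports that some photoreceptors were already dying by apoptosis. The number of photoreceptors in the sequenced retinas was not tested here.

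**Figure D1:**
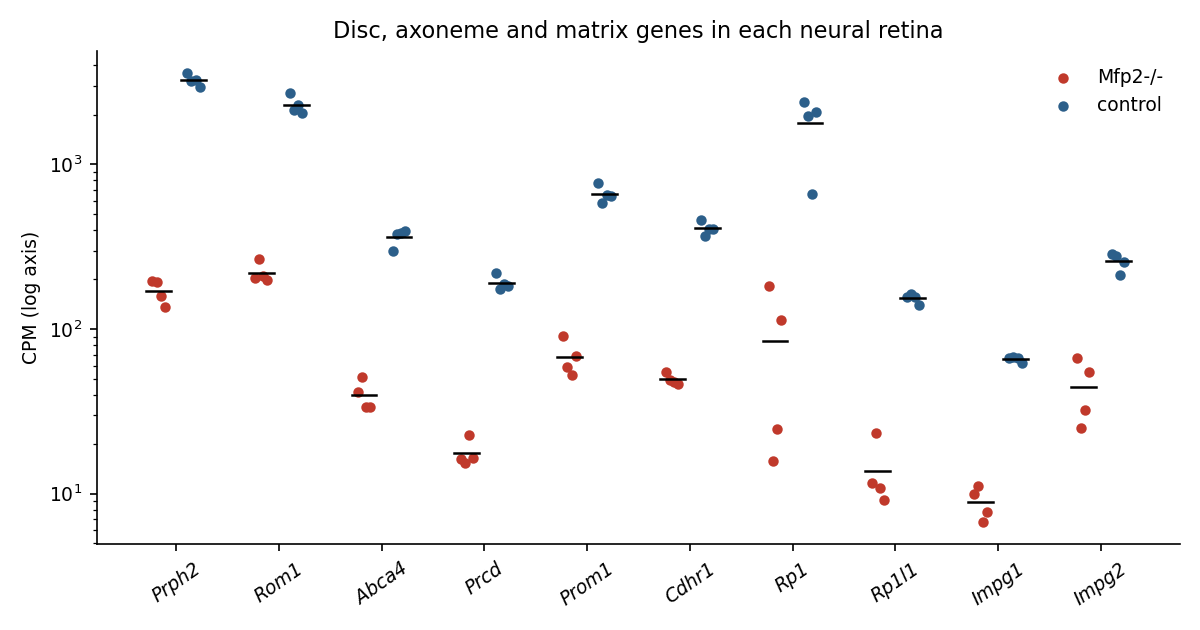
CPM, the read count scaled to library size (log axis), of the 10 genes in each library; every point is 1 mouse (red Mfp2-/-, blue control, 4 each) and the black bar is the group mean. In all 10 genes the 4 Mfp2-/- points lie below the 4 control points, and Rp1 has the widest spread, at 15.8 to 183 CPM in Mfp2-/- and 658 to 2384 CPM in control retinas.

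As the genes moved together, their promoters are shown for what they share in sequence. RefSeq promoters of build GRCm38.p6, from 250 bases before to 50 bases after the start of transcription, were at hand for 8 of the 10 genes, with 2 promoters for Prom1. They were searched on both strands for TAATC, the core bound by the photoreceptor homeodomain factors CRX and OTX2. It was found in 6 of these 9 promoters, where 22% of 32851 promoters of the same length hold it. They belong to 6 of the 8 genes (Prph2, Abca4, Prcd, Prom1, Impg1 and Impg2). Of the 2 promoters of Prom1 only 1 holds it. The longer TAATCC, which contains it, was found in Abca4 and Prcd, and in 7.06% of all promoters. The matches are a description of the letters and were not tested for binding. Below are the promoters of 3 genes with matches and, in contrast, that of Rom1 with none, written 5′ to 3′ in the direction of the gene with TAATC or its complement GATTA in capitals.

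Prph2, chr17:46910228-46910527, forward strand: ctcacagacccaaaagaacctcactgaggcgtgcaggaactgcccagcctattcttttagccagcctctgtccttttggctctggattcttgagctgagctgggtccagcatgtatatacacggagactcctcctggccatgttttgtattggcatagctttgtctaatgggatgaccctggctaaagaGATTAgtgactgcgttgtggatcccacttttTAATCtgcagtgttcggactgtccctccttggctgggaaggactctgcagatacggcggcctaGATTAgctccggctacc
Abca4, chr3:122044210-122044509, forward strand: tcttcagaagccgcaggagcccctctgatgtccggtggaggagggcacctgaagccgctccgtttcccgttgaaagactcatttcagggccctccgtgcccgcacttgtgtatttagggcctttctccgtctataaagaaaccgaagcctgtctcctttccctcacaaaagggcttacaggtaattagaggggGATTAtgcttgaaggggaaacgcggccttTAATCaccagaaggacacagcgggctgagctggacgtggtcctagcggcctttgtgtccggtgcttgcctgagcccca
Prcd, chr11:116656858-116657157, forward strand: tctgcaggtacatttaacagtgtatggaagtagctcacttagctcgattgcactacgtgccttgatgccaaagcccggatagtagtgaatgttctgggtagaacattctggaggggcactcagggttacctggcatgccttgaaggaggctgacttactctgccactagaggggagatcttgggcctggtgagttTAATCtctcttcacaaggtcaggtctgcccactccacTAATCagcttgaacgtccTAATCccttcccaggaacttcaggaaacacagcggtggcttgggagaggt
Rom1, chr19:8929307-8929606, reverse strand: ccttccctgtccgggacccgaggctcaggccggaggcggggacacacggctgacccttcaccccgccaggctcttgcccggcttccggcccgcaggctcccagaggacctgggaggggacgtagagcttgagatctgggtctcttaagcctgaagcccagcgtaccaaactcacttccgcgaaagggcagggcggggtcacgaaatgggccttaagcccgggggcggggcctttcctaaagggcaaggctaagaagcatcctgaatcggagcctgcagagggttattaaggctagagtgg

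In Prph2 the matches begin 61 and 30 bases before the start and 33 bases after it, in Abca4 57 and 28 bases before it, and in Prcd 55 and 18 bases before it and at the start itself.

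Prph2 (chromosome 17, 46910459 to 46924933 of GRCm38) was the disc rim gene with the lowest log2 fold change. In CPM, the counts scaled to the size of the library, it had 196, 194, 159 and 135 in Mfp2-/- replicates 1 to 4, against 3585, 3222, 3262 and 2942 in control replicates 1 to 4. Its fold change of -4.25 on the log2 scale (standard error 0.17, adjusted p = 1.2e-07) stood 35th from the lowest of the 12516 genes tested. Rom1 (chromosome 19, 8927391 to 8929356) had 203, 267, 209 and 199 CPM in Mfp2-/- replicates 1 to 4, against 2711, 2155, 2310.0 and 2060.1 CPM in control replicates 1 to 4. For Rom1 the log2 fold change came to -3.396 (standard error 0.16, adjusted p = 1.9e-07), and it was 10.5-fold lower by the group means, where Prph2 was 19.0-fold lower. Abca4 (chromosome 3, 122044443 to 122180123), a lipid transporter that clears retinal adducts from the disc membrane, had 41.4, 50.8, 33.6 and 33.5 CPM in Mfp2-/- replicates 1 to 4, against 299, 379.5, 384 and 395 CPM in control replicates 1 to 4. Its log2 fold change was -3.20 (standard error 0.18, adjusted p = 5.0e-07). Control replicate 1 was the lowest control for Abca4 and the highest control for Prph2 and Rom1. The pigment epithelium also expresses Abca4. Of 13 markers of that tissue 10 were tested, of which edgeR called 0, with 3 at an unadjusted p under 0.05. Of all genes tested, it called 13.8% higher and 13.2% lower. DESeq2 and limma-voom called 1 of the markers higher each. With upper-quartile factors edgeR called 1 higher, where 18.9% of all genes were called higher. With total counts alone it called 2 higher, where 2423 genes were called higher. The summed level of the 13 markers was 456 to 794 CPM in Mfp2-/- and 272 to 485 CPM in control retinas. Rpe65, the isomerase of the visual cycle, was at 13.1 ± 2.91 CPM in Mfp2-/- and 14.1 ± 4.08 CPM in control retinas (SD, n = 4 mice per group). The 10 markers tested had log2 fold changes of -0.55 (Lrat) to 1.12 (Mlana), with a median of 0.33. Their part in the level of Abca4 was not tested.

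The tetraspanin genes stood in opposite order in the groups. Rom1 exceeded Prph2 in all 4 Mfp2-/- libraries and was below it in all 4 control libraries. The log2 ratio of Rom1 to Prph2 was 0.36 ± 0.22 in Mfp2-/- and -0.50 ± 0.073 in control retinas (SD, n = 4 mice per group, log2 CPM with a prior count of 2). The difference of 0.86 is a 1.82-fold shift of the ratio. The groups did not overlap, with single values of 0.056, 0.46, 0.39 and 0.55 in Mfp2-/- replicates 1 to 4, against -0.40, -0.58, -0.50 and -0.51 in control replicates 1 to 4. An exact permutation test, two-sided, gave p = 0.0286, the smallest that 4 mice against 4 allow, and p = 0.114 after adjustment over the 4 ratios compared, which is not below 0.05. As the counts come from 3′ ends, 1 transcript gives reads independent of its length, but how well each 3′ end was captured is not known, so that a ratio of 0 does not mark equal numbers of transcripts.

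**Figure D2:**
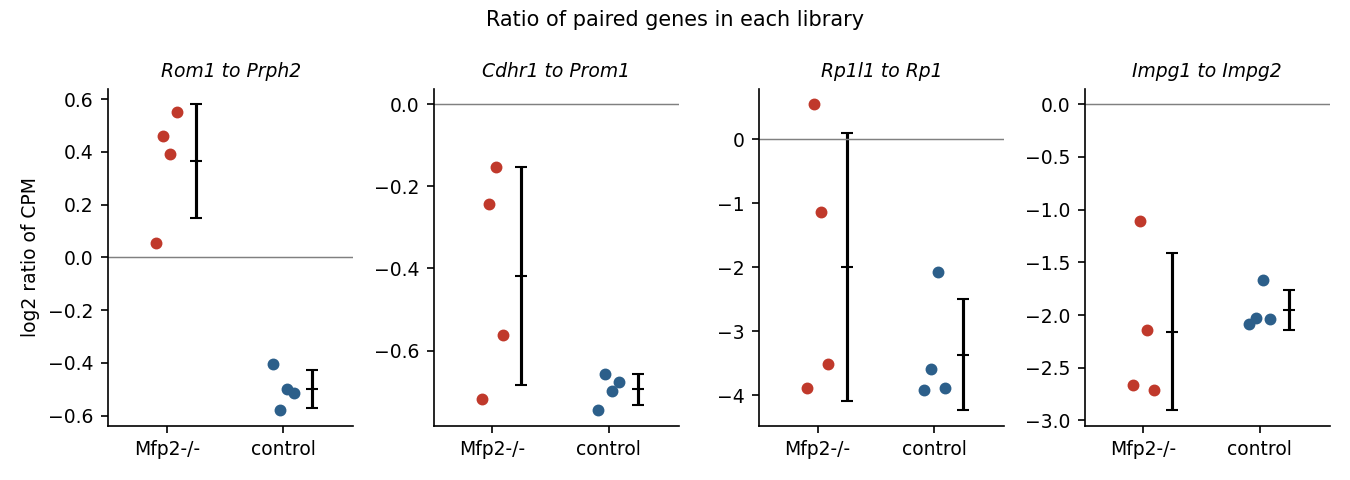
Log2 ratio of CPM for the 4 pairs of genes with a shared role, with an axis of its own for each pair; points are libraries (red Mfp2-/-, blue control) and black bars give mean and SD per group (4 mice). For Rom1 to Prph2 the Mfp2-/- libraries lie above 0 and the controls below it, at means of 0.36 and -0.50; in the other 3 pairs the groups overlap.

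Prcd (chromosome 11, 116653534 to 116668389), a small palmitoylated protein of the disc membrane, had 16.3, 15.2, 22.9 and 16.5 CPM in Mfp2-/- replicates 1 to 4, against 218, 175, 187 and 183 CPM in control replicates 1 to 4. The log2 fold change was -3.41 (standard error 0.17, adjusted p = 2.2e-07), and all Mfp2-/- retinas were far below the controls. Prcd shares exon bases with Cygb on the other strand, and whether the counting took strand into account is not given in the sources used here. Cygb, named after its values were seen, encodes the globin cytoglobin and went the other way, at 425 ± 50.1 CPM in Mfp2-/- and 297 ± 30.9 CPM in control retinas (SD, n = 4 mice per group). Its log2 fold change was 0.51 (standard error 0.14, adjusted p = 0.0183).

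At the base of the discs, Prom1 and Cdhr1 were both lower. Prom1 (chromosome 5, 43993620 to 44102032) had 91.3, 58.4, 52.8 and 68.8 CPM in Mfp2-/- replicates 1 to 4, against 769, 583, 656 and 647 CPM in control replicates 1 to 4 (log2 fold change -3.29, standard error 0.20, adjusted p = 7.0e-07). Cdhr1 (chromosome 14, 37077857 to 37098347) had 55.2, 49.3, 47.4 and 46.3 CPM in Mfp2-/- replicates 1 to 4, against 459, 369, 404 and 405 CPM in control replicates 1 to 4 (log2 fold change -3.04, standard error 0.14, adjusted p = 1.6e-07). Cdhr1 was the steadiest gene among Mfp2-/- retinas, with a coefficient of variation of 7.99%, where that of Prom1 was 25.1%. The log2 ratio of Cdhr1 to Prom1 was -0.42 ± 0.27 in Mfp2-/- and -0.69 ± 0.038 in control retinas (SD, n = 4 mice per group). The groups overlapped, and the difference of 0.28 did not pass the exact permutation test (two-sided, p = 0.114, adjusted over 4 ratios p = 0.229). It was 0.054 without Mfp2-/- replicates 2 and 3.

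The axonemal gene Rp1 (chromosome 1, 3999557 to 4409241) had the lowest log2 fold change of the 10 genes and the widest spread. It had 183, 15.8, 24.5 and 113 CPM in Mfp2-/- replicates 1 to 4, against 2384, 1961, 658 and 2092 CPM in control replicates 1 to 4. The coefficient of variation was 94.1% in Mfp2-/- and 43.1% in control retinas, where the other 9 genes had 7.99% to 47.3% in Mfp2-/- and 4.00% to 12.7% in control retinas. The log2 fold change of -4.39 had a standard error of 0.74 and an adjusted p of 0.00159. Rp1l1 (chromosome 14, 63992506 to 64035025) had 11.7, 23.4, 10.8 and 9.19 CPM in Mfp2-/- replicates 1 to 4, against 158, 162, 156 and 141 CPM in control replicates 1 to 4 (log2 fold change -3.52, standard error 0.25, adjusted p = 2.9e-06). Mfp2-/- replicate 2 was thus the highest of its group for Rp1l1 and the lowest for Rp1. The log2 ratio of Rp1l1 to Rp1 was -1.998 ± 2.09 in Mfp2-/- and -3.37 ± 0.87 in control retinas (SD, n = 4 mice per group), with overlap and no call (exact permutation test, two-sided, p = 0.200, adjusted over 4 ratios p = 0.267). Without Mfp2-/- replicates 2 and 3 the difference of 1.37 became -0.34, and without control replicate 3 as well it was 0.094.

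The libraries in which Rp1 was low within its group were those with the fewest reads in no counted feature, called reads outside genes here. This share of all reads was 27.5%, 10.8%, 15.7% and 27.98% in Mfp2-/- replicates 1 to 4, against 27.1%, 28.3%, 22.6% and 29.9% in control replicates 1 to 4. Whether reads in introns are among them is not given in the sources used here. In the libraries with 27.1% to 29.9%, which are 2 Mfp2-/- and 3 control mice, Rp1 averaged 148 CPM in Mfp2-/- and 2146 CPM in control retinas, a 14.5-fold decrease. In those with 10.8% to 22.6%, which are 2 Mfp2-/- mice and 1 control mouse, it averaged 20.1 CPM in Mfp2-/- and was at 658 CPM in the control retina, a 32.7-fold difference without a test. This split of the libraries was made after the data had been seen. The next fits, with the share as a covariate and without 3 libraries, were likewise added after the data had been seen. With the covariate, edgeR put Rp1 at -3.61 on the log2 scale (standard error 0.24, adjusted p = 2.3e-09), and without the 3 libraries with the fewest such reads -3.86 (standard error 0.19, adjusted p = 5.9e-10). Both settings follow the spread of Rp1 within groups, so that their smaller standard errors and p-values are no added support for the decrease. Of the fits that left out Mfp2-/- libraries, it was -5.10 without replicate 1 (adjusted p = 9.4e-04) and -3.59 without replicates 2 and 3 (adjusted p = 2.1e-05). Rp1 was called lower in each of these fits, whereas the size of its fold change depended on the libraries compared. Other genes also went with this share. After subtracting group means, log2 CPM correlated with its log2 at Pearson r = 0.94 for Rp1 and 0.96 for Impg2. The values were -0.80 for Rp1l1, -0.70 for Rom1 and 0.63 for Prom1. Those of Rp1l1 and Rom1 rest largely on Mfp2-/- replicate 2, which deviated from its group mean by 0.83 and 0.29 (log2). Mfp2-/- replicate 3, with the next smallest share, deviated by -0.24 and -0.059, so that no steady trend with the share was seen for them. The remaining genes lay between -0.46 (Abca4) and 0.13 (Cdhr1). No test of these correlations was made.

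**Figure D3:**
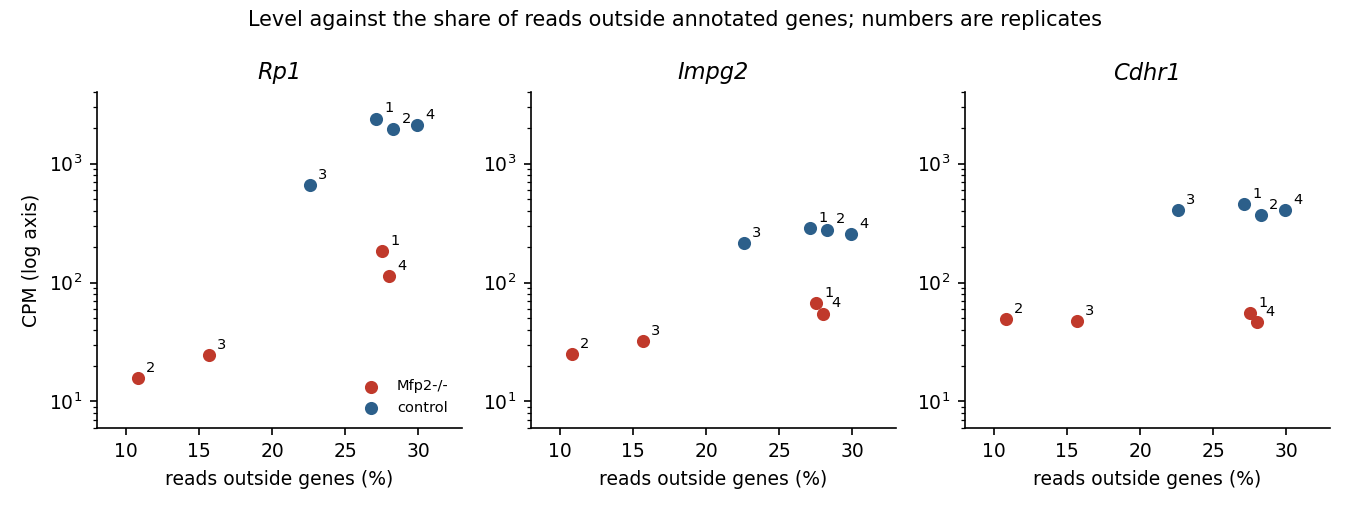
CPM (log axis) of Rp1, Impg2 and Cdhr1 against the percent of all reads that fell in no counted feature (reads outside genes). Each library is 1 point (red Mfp2-/-, blue control) with the replicate number beside it. Rp1 is at 15.8 and 24.5 CPM in the Mfp2-/- libraries with 10.8% and 15.7% and at 183 and 113 CPM in those with 27.5% and 27.98%. Cdhr1, shown as a gene that varied little, stays between 46.3 and 55.2 CPM in all 4. Rp1l1, Rom1 and Prom1, not drawn, also correlated with this percent within groups, Rp1l1 and Rom1 negatively and largely through Mfp2-/- replicate 2 alone.

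Both proteoglycan genes of the matrix were lower as well, at less than 8-fold with all libraries. Impg1 (chromosome 9, 80313330 to 80465481) had 9.91, 11.2, 6.72 and 7.72 CPM in Mfp2-/- replicates 1 to 4, against 67.0, 67.9, 66.8 and 62.0 CPM in control replicates 1 to 4. Its log2 fold change was -2.90 (standard error 0.17, adjusted p = 7.0e-07). It was the least abundant of the 10 genes in both groups, with 20 to 28 counts per Mfp2-/- library. Impg2 (chromosome 16, 56204313 to 56273756) had 66.9, 24.9, 32.3 and 54.8 CPM in Mfp2-/- replicates 1 to 4, against 287, 278, 214 and 256 CPM in control replicates 1 to 4. Its log2 fold change was -2.52 (standard error 0.28, adjusted p = 8.1e-05). As for Rp1, the low libraries were Mfp2-/- replicates 2 and 3 and control replicate 3. With the share of reads outside genes as a covariate the log2 fold change of Impg2 was -2.17 (standard error 0.14, adjusted p = 1.0e-09). As Impg2 followed this share within groups, the smaller p-value is no added support here either. The log2 ratio of Impg1 to Impg2 was -2.16 ± 0.75 in Mfp2-/- and -1.95 ± 0.19 in control retinas (SD, n = 4 mice per group), a difference of -0.20 that did not pass the exact permutation test (two-sided, p = 0.543, also after adjustment over 4 ratios). It was -0.019 without Mfp2-/- replicate 4 and -0.56 without Mfp2-/- replicate 2 (exact permutation p = 0.0571, the smallest that 3 mice against 4 allow), and -0.74 without Mfp2-/- replicates 2 and 3.

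The transcripts differed in their content of A. As QuantSeq libraries are primed with oligo(dT), stretches of A inside a transcript are of interest, and they were searched in the longest protein-coding GENCODE transcript of each gene, leaving out its last 300 bases. Rp1 had the largest content of A, at 33.9% of 6869 bases, followed by Impg2 (29.3%), Impg1 (29.2%) and Prom1 (28.1%). The other 6 genes held 20.9% (Prcd) to 25.6% (Cdhr1). Impg1 held about as much A as Impg2. It was 7.44-fold lower in the libraries with many reads outside genes and 7.46-fold lower in those with few. These folds were 14.5 and 32.7 for Rp1, 4.50 and 7.47 for Impg2, and 8.33 and 11.8 for Prom1. The libraries with few such reads held 1 control mouse. Whether the content of A bears on these differences was not tested. Impg2 was the only one of the 10 with runs of 10 A, of which it had 2, and Rp1 had 0. The windows of 24 bases with the most A are shown for Rp1 and Impg2 (17 A in each), for Prph2 (16 A) and for Rom1, which had the fewest (11 A). Runs of 4 or more A are in capitals. Prom1, not shown, also had a window with 16 A. Whether reads began at these places was not tested.

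Rp1, chr1:4351912-4351935 of GRCm38, reverse strand: AAAAgccaagatagAAAAAAgaaa
Impg2, chr16:56271056-56271079, forward strand: tAAAAgcaaacaaatAAAAcagaa
Prph2, chr17:46923926-46923949, forward strand: AAAAgcaaggtgAAAAtaagAAAA
Rom1, chr19:8927759-8927782, reverse strand: ctgaaagacatactgAAAActgca

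The order of levels, in CPM of 3′ ends, differed between the groups. In Mfp2-/- retinas it ran Rom1, Prph2, Rp1, Prom1, Cdhr1, Impg2, Abca4, Prcd, Rp1l1 and Impg1 by group mean. In control retinas it ran Prph2, Rom1, Rp1, Prom1, Cdhr1, Abca4, Impg2, Prcd, Rp1l1 and Impg1. Among Mfp2-/- retinas the neighbours Rom1 and Prph2 and the neighbours Abca4 and Prcd did not overlap, whereas all other neighbours did. Among control retinas Rom1 and Rp1, Rp1 and Prom1, Cdhr1 and Abca4, and Impg2 and Prcd overlapped. Of the summed level of the 10 genes, Prph2 made up 23.9% in Mfp2-/- and 34.4% in control retinas, and Impg2 6.24% in Mfp2-/- and 2.74% in control retinas. Within the controls, the Mfp2+/- library lay inside the range of the 3 Mfp2+/+ libraries for 5 genes, below it for Prom1, Cdhr1 and Prcd and above it for Rp1l1 and Impg1. Its level was 84.3% to 115% of the Mfp2+/+ mean, whereas Mfp2-/- retinas were at 4.74% (Rp1) to 17.3% (Impg2) of the control mean.

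**Figure D4:**
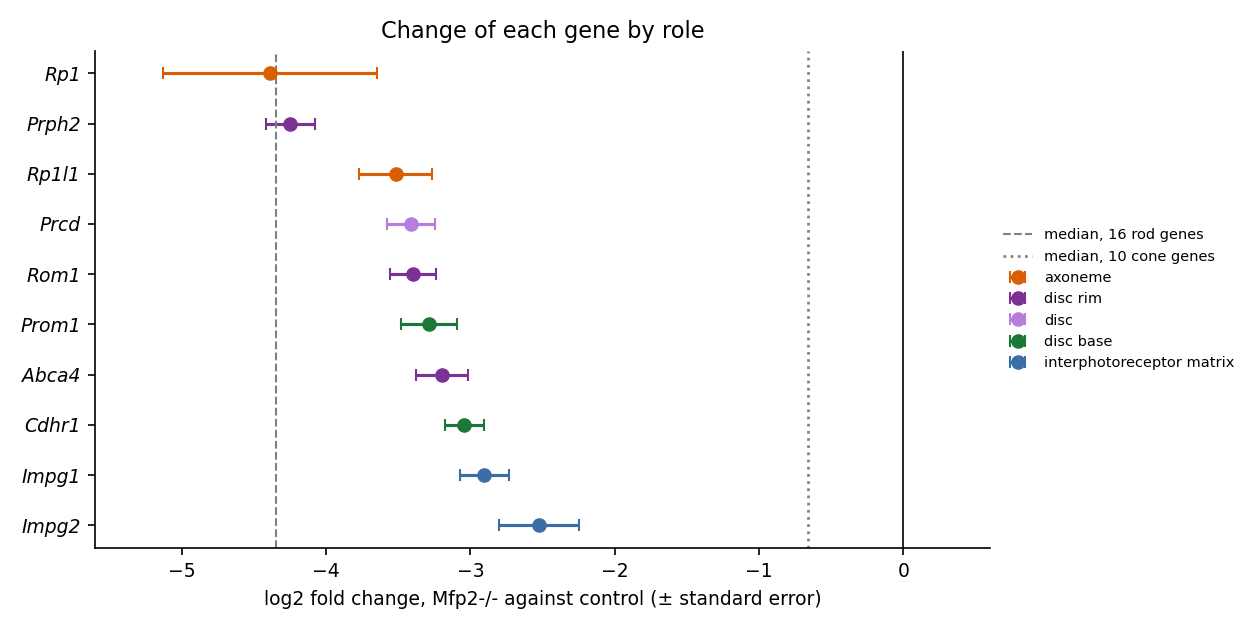
Log2 fold change of each gene in Mfp2-/- against control retinas with its standard error, coloured by role and ordered from the largest decrease; the dashed and dotted lines are the medians of 16 rod genes (-4.35) and 10 cone genes (-0.66). All 10 genes lie below 0, from -4.39 for Rp1 to -2.52 for Impg2, with the widest error bar for Rp1.

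Genes that work next to these were taken from 2 lists. Of 9 other genes of the disc, its rim and the axoneme, all tested, 8 were lower in Mfp2-/- retinas, with a median log2 fold change of -2.45. Those with the smallest adjusted p-values were Tulp1 (-3.05), needed for protein transport to the outer segment, and Cngb1 (-3.78), a rod channel subunit whose GARP part binds peripherin-2. They were followed by Fscn2 (-4.78), a photoreceptor fascin that bundles actin, Pcare (-2.45, listed as BC027072), which recruits actin regulators to the site of disc formation, and Mak (-2.80), a kinase of the axoneme. Their adjusted p-values ran from 2.2e-07 for Tulp1 to 1.2e-06 for Mak. Fscn2 was at 2.52 ± 1.32 CPM in Mfp2-/- and 71.8 ± 7.12 CPM in control retinas (SD, n = 4 mice per group). Its Mfp2-/- values, 1.10 to 4.25 CPM, were near the floor, so that the size of its decrease is uncertain. It passed the expression filter through the controls. Of 8 other genes of the matrix and the photoreceptor surface 5 were tested, of which 3 were lower and 1 higher, with a median of -2.26.

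Among the matrix genes that fell were Egflam (-2.73, adjusted p = 2.1e-06), which encodes pikachurin at the photoreceptor synapse, and Rbp3 (-2.26, adjusted p = 3.2e-06), the retinoid carrier that is the main soluble protein of this matrix. Egflam was at 25.5 ± 6.46 CPM in Mfp2-/- and 169 ± 8.19 CPM in control retinas, and Rbp3 at 354 ± 74.3 CPM in Mfp2-/- and 1699 ± 40.7 CPM in control retinas (SD, n = 4 mice per group). Cd44, a hyaluronan receptor found on Müller glia, went the other way. It had 89.9, 106, 96.5 and 94.1 CPM in Mfp2-/- replicates 1 to 4, against 11.3, 13.1, 7.10 and 15.7 CPM in control replicates 1 to 4 (log2 fold change 3.04, standard error 0.21, adjusted p = 2.0e-06). Vcan, which encodes the proteoglycan versican, had a log2 fold change of 1.05 and did not pass (adjusted p = 0.149).

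Lists of cell type markers stood beside these changes, and are to be read against the 13.8% of all genes tested that edgeR called higher and the 13.2% called lower. All 16 rod genes were lower (median log2 fold change -4.35), and of 10 cone genes 6 were lower and 2 higher (median -0.66). Of the genes tested, 8 of 11 Müller glia, 6 of 8 bipolar, 2 of 7 amacrine, 5 of 8 ganglion cell and 8 of 8 microglia markers were higher. With upper-quartile factors 4 amacrine and 7 ganglion cell markers were higher, where the share of all genes called higher was 18.9%. Without Mfp2-/- replicates 2 and 3 that share was 13.3%, 3 ganglion cell markers were higher, and of the Müller glia markers 8 were higher and 1 lower. Of 7 lens markers, all tested, 4 were higher by edgeR and 0 by limma-voom, where 1 had an unadjusted p under 0.05. Their sum was 281 to 5206 CPM in Mfp2-/- and 268 to 1146 CPM in control retinas, with the largest values in Mfp2-/- replicates 2 and 3. Without these 2 libraries edgeR called 0 lens markers, with 3 at an unadjusted p under 0.05, and all 10 outer segment and matrix genes were called lower. Of the genes outside the 10, those whose log2 CPM over the 8 libraries followed the mean of the 10 most closely were the rod phosphodiesterase gene Pde6a (Pearson r = 0.999), Klhl18 (0.999), a subunit of a ubiquitin ligase, Sntb2 (0.998), which encodes a syntrophin, the rod transcription factor gene Nrl (0.998) and the transcript RP23-1D15.3 (0.998). These likenesses rest mainly on the difference between the groups and have no test.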

How the data were processed

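The values used are the deposited raw read counts, which the authors summed per gene symbol, 1 table per library of 1 mouse. The submitters' processing notes name FastQC 0.11.7, HISAT2, SAMtools 1.5, HTSeq 2.7.14 and mm10. The version of HISAT2, the release of the annotation and whether strand was used: not given in the sources used here. Of all reads, 59.2% to 66.9% were not assigned to a gene (outside genes, ambiguous, unaligned or not unique) and stayed out of library sizes. A series-wide table of the same counts was not used.

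Genes passing filterByExpr (12516) were tested in R 4.3.3 with edgeR 4.0.16 (TMM factors, quasi-likelihood test, Benjamini-Hochberg adjustment over these genes), with the group as the single term. Standard errors are the log2 fold change divided by the square root of F. CPM are scaled by TMM factors. The groups follow the sample titles. That the replicates are separate mice is stated by the study. Alternatives were DESeq2 1.42.0, limma-voom (limma 3.58.1, the package the study used), RLE, upper-quartile and no factors, other filters, the replicate number as a block, and leaving out libraries. The fit was tested on simulated data.

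The 10 genes and all lists were chosen with earlier results of these data known. Named beside them were, by rule, up to 5 tested genes of each of the 2 lists of other disc and matrix genes with the smallest adjusted p and the 5 genes with the closest profile. Some genes that these choices would name are not reported here. Promoters are from RefSeq (GRCm38.p6), positions and transcripts from GENCODE M21 (GRCm38), the build called mm10. Reads were not collapsed by molecule here.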

Additional observations from a re-analysis of the deposited data

Results flagged for a closer look

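Within the 4 mice of a group, 28 sets of log2 values (10 genes and 4 ratios in 2 groups) were searched for a library far from the others, by the gap to its neighbour as a share of the whole range, against the critical value of Dixon. Chance passes about 1 in 20 such sets, here 1.4, and 3 passed. Rp1 in control retinas reached 0.848, as control replicate 3 was at 658 CPM where the others were at 1961 to 2384 CPM. The ratio of Impg1 to Impg2 in control retinas reached 0.851, at -1.67 (log2) in the same library and -2.09 to -2.02 in the others. Abca4 in control retinas reached 0.853, as control replicate 1 was at 299 CPM and the others at 379.5 to 395 CPM.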

How the results depend on the processing

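The call of all 10 genes as lower held under each of the 19 alternatives tried. Leaving out 1 library at a time gave log2 fold changes of -4.32 to -4.13 for Prph2, -3.50 to -3.32 for Rom1, -5.10 to -4.06 for Rp1 and -2.77 to -2.33 for Impg2, and 2474 to 3524 called genes where all libraries gave 3377. Upper-quartile factors and total counts alone brought the median over all genes to 0.12 (log2) and the share of called genes that were higher to 64.2% and 65.2%, against 51.2% with TMM factors. The replicate numbers gave no clear sign of paired mice: deviations from the group means correlated at -0.16 to 0.25 in the 4 same-numbered pairs, and 3 of 8 libraries correlated best with their own number. Such correlations cannot exclude that mice were paired. The counts of called genes in the lists under other tools, scalings and libraries were added after the data had been seen. So were the ratios without Mfp2-/- replicates 2 and 3, and those without control replicate 3 as well. With the replicate number as a block 2845 genes were called, Prph2, Rom1 and all other members of the 10 kept their calls, and the ratio of Rom1 to Prph2 differed by 0.86 (exact sign-flip permutation p = 0.125, the smallest that 4 pairs allow). The difference in that ratio was 0.80 to 0.97 with 1 library left out. Without Mfp2-/- replicates 2 and 3 the difference in the ratio of Cdhr1 to Prom1 was 0.054, and without control replicate 3 as well 0.053. That of Rp1l1 to Rp1 was -0.34 without Mfp2-/- replicates 2 and 3, 0.094 without control replicate 3 as well, and 0.52 to 2.00 with 1 library left out. That of Impg1 to Impg2 was -0.56 to -0.019 with 1 library left out, -0.74 without Mfp2-/- replicates 2 and 3 and -0.64 without control replicate 3 as well. The cause of these shifts was not tested.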

Other observations

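After subtracting the group means, the genes whose log2 CPM over the 8 libraries followed that of Rp1 most closely included Zfp120 (Pearson r = 0.993), Dennd1b (0.993), RP23-416H10.8 (0.993) and Zfp101 (0.985). Among the 20 closest were also Rpgr (0.981) and Cep290 (0.980), whose products sit in the connecting cilium below the discs. All were named after their values were seen. The points share the 8 libraries, the spread of Rp1 within groups was larger than that of 99.0% of genes tested, and no test was made.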
